A study of Mus musculus with 3 samples.

Results

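The genes described are 9 that encode proteins of clotting and fibrinolysis on and around vessel walls: Vwf, Thbd, Procr, F3, Tfpi, Plat, Plau, Plaur and Serpine2. They were taken by name, with earlier results of these data known, from the 17126 gene symbols that the deposited tables list. All 9 were found in each of the 3 libraries.

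Clotting starts when tissue factor, which cells outside the vessel lumen carry, meets plasma and sets off the cascade that forms thrombin and then fibrin. The endothelium holds this in check with membrane receptors that turn thrombin towards activation of protein C and with an inhibitor of the tissue factor complex, and it stores von Willebrand factor for release at injury. Fibrin is later removed by plasmin, which is made from plasminogen by tissue-type and urokinase-type plasminogen activators under the control of serpin inhibitors.

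The cells came from the interstitium of adult mouse hearts, freed with collagenase II, spun slowly to take away cardiomyocytes, and sorted by flow cytometry on 2 surface proteins, the RNA-binding protein Lin28 and the stem cell factor receptor cKit. The groups were Lin28+/cKit+, Lin28+/cKit- and Lin28-/cKit-, each read out as 1 library of single cells (10x Chromium 3' v3.1 droplets). The labels name no allele, strain or treatment, and the sources used here do not give the number, sex or exact age of the animals or whether hearts were pooled. Since each group is 1 library, no difference between groups has a replicate check and no p-value is printed.

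The Lin28+/cKit+ library held 1176 cells, the Lin28+/cKit- library 681 and the Lin28-/cKit- library 3976. These cells gave 10400648, 7401174 and 34031955 UMIs (unique molecular identifiers, the tags by which captured transcripts are counted) in that order, at medians of 8068.5, 9628 and 8630 UMIs per cell. Levels are in CPM, the UMIs of a gene per 1000000 UMIs of all genes, summed over the cells in question. Brackets hold 95% intervals, and these cover counting error only. Cells shared 8 barcodes between the Lin28+/cKit+ and Lin28-/cKit- libraries, 1 between the 2 Lin28-positive libraries and 0 between the Lin28+/cKit- and Lin28-/cKit- libraries.

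Cells were clustered without the 9 genes and named from marker genes. Endothelial-like cells made up 36.6% of the Lin28+/cKit+ library (430 cells), 35.8% of the Lin28+/cKit- library (244 cells) and 23.2% of the Lin28-/cKit- library (922 cells). Macrophage-like cells made up 50.4% (593 cells), 39.1% (266 cells) and 0.352% (14 cells) of the same libraries. Fibroblast-like cells made up 0.765% (9 cells), 3.82% (26 cells) and 61.8% (2457 cells). By other clusterings and by each cell's own markers the last share ran from 46.3% to 71.9%. The macrophage-like share of the Lin28+/cKit- library ran from 38.9% to 48.9% in the same way. The sort and the cell class therefore went together: macrophage-like cells could be compared between the 2 Lin28-positive libraries, endothelial-like cells among all 3, and fibroblast-like cells were described in the Lin28-/cKit- library, since a class needed 50 cells in a library. The defining markers were present, with each level set against the median of the 23 clusters. Each of the 10 listed macrophage markers was at least 2-fold above that median in both macrophage-like clusters. So were 8 to 10 of the 10 endothelial markers in the 4 endothelial-like clusters. In the 6 fibroblast-like clusters 9 or 10 of the 10 fibroblast markers were. Cells of 5 clusters were left unnamed because their depth or their leading genes went against a name (9.44%, 13.5% and 11.7% of the cells).

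Each of the 3 large classes was the highest for some of the 9 genes. With libraries weighted equally, 3 of the 9 had their highest class level in endothelial-like cells (Vwf, Thbd and Procr), 4 in fibroblast-like cells (F3, Serpine2, Tfpi and Plat) and 2 in macrophage-like cells (Plau and Plaur). For Tfpi the endothelial-like and fibroblast-like levels were close, at 56.6 and 56.9 CPM, and so were those of Plat, at 62.9 and 66.4 CPM. These 2 are better called shared, although Plat in endothelial-like cells of the Lin28+/cKit- library lay below the interval of fibroblast-like cells. With UMIs summed over libraries, and in each of 3 other clusterings, 5 of the 9 were highest in endothelial-like cells.

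Vwf encodes von Willebrand factor, the multimeric protein that tethers platelets and carries factor VIII (mm10 chromosome 6, 125546774 to 125686679, plus strand). Its level in endothelial-like cells was 154 CPM (139.5 to 169.6) in the Lin28+/cKit+ library, 171 CPM (153 to 190.2) in the Lin28+/cKit- library and 390.0 CPM (371 to 409) in the Lin28-/cKit- library. The intervals of the 2 Lin28-positive libraries overlapped, and that of the Lin28-/cKit- library lay above both. Elsewhere Vwf was low, at 1.47 CPM (0.704 to 2.70) and 3.17 CPM (1.73 to 5.31) in macrophage-like cells of the Lin28+/cKit+ and Lin28+/cKit- libraries and at 3.01 CPM (2.38 to 3.76) in fibroblast-like cells. Endothelial-like cells held 96.0%, 91.4% and 90.6% of the Vwf UMIs of the 3 libraries.

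Thbd encodes thrombomodulin, the thrombin receptor that switches thrombin from clotting to protein C activation (chromosome 2, 148404466 to 148408188, minus strand). Endothelial-like cells had 193 CPM (177 to 210.2) in the Lin28+/cKit+ library, 241 CPM (219.8 to 264) in the Lin28+/cKit- library and 219.6 CPM (206 to 234) in the Lin28-/cKit- library, so the 3 groups lay close together and the middle one of the levels overlapped both of the others. Thbd was also found in fibroblast-like cells, at 62.7 CPM (59.7 to 65.8), and these, being many, held 59.2% of the Thbd UMIs of the Lin28-/cKit- library. Macrophage-like cells had 9.98 CPM (7.75 to 12.7) in the Lin28+/cKit+ library and 11.5 CPM (8.59 to 15.2) in the Lin28+/cKit- library.

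Procr encodes the endothelial protein C receptor, which presents protein C to the thrombin-thrombomodulin complex (chromosome 2, 155751117 to 155755471, plus strand). Its level in endothelial-like cells was 23.9 CPM (18.4 to 30.5) in the Lin28+/cKit+ library, 20.1 CPM (14.4 to 27.4) in the Lin28+/cKit- library and 31.3 CPM (26.2 to 37.2) in the Lin28-/cKit- library, with neighbouring intervals overlapping. Fibroblast-like cells had 8.10 CPM (7.04 to 9.28), above the macrophage-like cells of the Lin28+/cKit+ library at 3.38 CPM (2.14 to 5.06) and of the Lin28+/cKit- library at 2.04 CPM (0.931 to 3.87).

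F3 encodes tissue factor, the cell-surface receptor that starts clotting with factor VII (chromosome 3, 121723537 to 121735048, plus strand). Among the 3 large classes it was a gene of fibroblast-like cells, at 62.9 CPM (59.9 to 66.1) in the Lin28-/cKit- library. Endothelial-like cells had 0 UMIs in the Lin28+/cKit+ library and 0 UMIs in the Lin28+/cKit- library, counts that allow up to 1.12 and 1.51 CPM, and 12 UMIs in the Lin28-/cKit- library, at 2.87 CPM (1.48 to 5.01). That last level lay below the 5.14 CPM that free RNA would give there if F3 leaked into endothelial-like cells as the fibroblast markers did, which stood in them at 9.75% of their level in the whole library. Such estimates take all marker UMIs there as free RNA, and in the Lin28+/cKit+ library the same markers stood at 480 CPM in endothelial-like cells, 117% of their library level, more than free RNA alone can give. The few fibroblast-like cells of the other libraries also held F3, with 42.3 CPM (11.5 to 108) in the Lin28+/cKit+ library (9 cells, 4 UMIs) and 188 CPM (147 to 237) in the Lin28+/cKit- library (26 cells, 72 UMIs, of which 1 cell held 23 and another 20). Macrophage-like cells had 3 and 1 F3 UMIs in the Lin28+/cKit+ and Lin28+/cKit- libraries. An F3 UMI was found in 39.4% of fibroblast-like cells (median 10302 UMIs) and in 1.19% of endothelial-like cells (median 4066.5 UMIs) of the Lin28-/cKit- library, and in 6.32% and 0.219% after each cell was thinned to 1000 UMIs.

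Tfpi encodes tissue factor pathway inhibitor, which blocks the complex of tissue factor with factor VII (chromosome 2, 84432855 to 84476775, minus strand). It was the most evenly spread of the 9 across classes. Endothelial-like cells had 58.2 CPM (49.4 to 68.1) in the Lin28+/cKit+ library, 49.3 CPM (40.0 to 60.1) in the Lin28+/cKit- library and 62.4 CPM (55.0 to 70.4) in the Lin28-/cKit- library, and fibroblast-like cells had 56.9 CPM (54.0 to 59.9), all with overlapping intervals. Macrophage-like cells lay below these, at 25.1 CPM (21.5 to 29.2) in the Lin28+/cKit+ library and 24.0 CPM (19.6 to 29.0) in the Lin28+/cKit- library. Free RNA at the level of the endothelial markers would give 2.39 and 1.86 CPM there.

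Plat encodes tissue-type plasminogen activator, the activator that endothelium releases (chromosome 8, 22757727 to 22782844, plus strand). Endothelial-like cells had 64.9 CPM (55.6 to 75.3) in the Lin28+/cKit+ library, 46.3 CPM (37.3 to 56.8) in the Lin28+/cKit- library and 77.4 CPM (69.2 to 86.3) in the Lin28-/cKit- library, and fibroblast-like cells 66.4 CPM (63.3 to 69.7). Only the Lin28+/cKit- and Lin28-/cKit- endothelial-like levels stood clear of each other among these groups, apart from the gap between the Lin28+/cKit- level and that of fibroblast-like cells. Macrophage-like cells had 1.03 CPM (0.413 to 2.12) and 1.58 CPM (0.637 to 3.26) in the Lin28+/cKit+ and Lin28+/cKit- libraries, near what free RNA would give (1.40 and 1.08 CPM).

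Plau encodes urokinase, the second plasminogen activator (chromosome 14, 20836660 to 20843385, plus strand), and Plaur encodes its receptor, which holds it at the cell surface (chromosome 7, 24462484 to 24475968, plus strand). Plau stood at 62.5 CPM (56.7 to 68.7) in macrophage-like cells of the Lin28+/cKit+ library and at 70.4 CPM (62.8 to 78.6) in those of the Lin28+/cKit- library. Fibroblast-like cells came next with 11.6 CPM (10.34 to 13.004), and endothelial-like cells had 1.49, 6.54 and 2.39 CPM in the Lin28+/cKit+, Lin28+/cKit- and Lin28-/cKit- libraries, from 4, 13 and 10 UMIs. The receptor was also highest in macrophage-like cells, but endothelial-like and fibroblast-like cells lay close to each other. Plaur stood at 51.1 CPM (45.8 to 56.7) and 59.3 CPM (52.3 to 66.9) in macrophage-like cells of the Lin28+/cKit+ and Lin28+/cKit- libraries. In endothelial-like cells the Lin28+/cKit+ library had 23.5 CPM (18.1 to 30.1), the Lin28+/cKit- library 22.6 CPM (16.5 to 30.3) and the Lin28-/cKit- library 18.9 CPM (14.9 to 23.5), overlapping each other, and fibroblast-like cells had 17.1 CPM (15.5 to 18.8). In the Lin28+/cKit- library a Plau UMI was found in 43.6% of macrophage-like cells (median 13872 UMIs) and 5.33% of endothelial-like cells (median 7694.5 UMIs), and after thinning in 4.91% and 0.833%.

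Serpine2 encodes protease nexin-1, a serpin that inhibits thrombin and both plasminogen activators (chromosome 1, 79794197 to 79861180, minus strand). Like F3 it was a gene of fibroblast-like cells, at 369 CPM (362 to 376) in the Lin28-/cKit- library, where 87.4% of these cells had a UMI, against 9.002% of endothelial-like cells, and 26.6% against 3.06% after thinning. The few fibroblast-like cells of the other libraries had 317 CPM (214 to 452) in the Lin28+/cKit+ library (9 cells) and 344 CPM (288 to 408) in the Lin28+/cKit- library (26 cells). Endothelial-like cells had 4.10 CPM (2.05 to 7.34) in the Lin28+/cKit+ library, 2.51 CPM (0.817 to 5.87) in the Lin28+/cKit- library and 27.0 CPM (22.3 to 32.5) in the Lin28-/cKit- library, and macrophage-like cells 0.294 and 0.226 CPM in the Lin28+/cKit+ and Lin28+/cKit- libraries, from 2 and 1 UMIs. The Lin28-/cKit- library thus stood apart among endothelial-like cells, and the same estimate of free RNA, with the same limit, was 30.8 CPM of Serpine2 there.

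**Figure D1:**
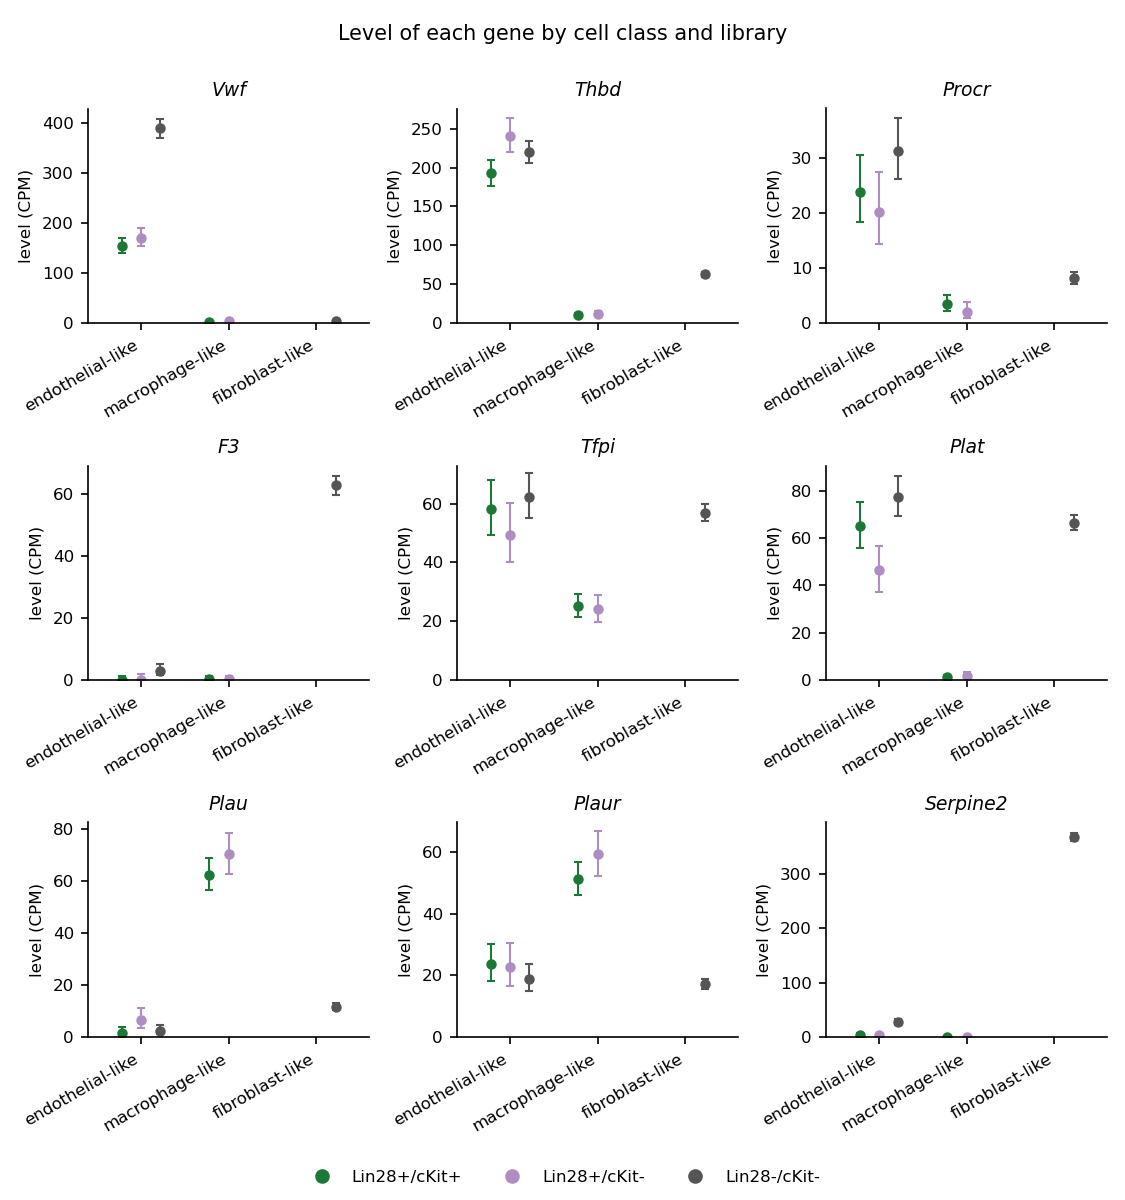
Level of each of the 9 genes (CPM, linear axis from 0) in endothelial-like, macrophage-like and fibroblast-like cells; each point is 1 library with at least 50 cells of the class, and bars are 95% counting intervals. Vwf, Thbd and Procr stand highest in endothelial-like cells and F3 and Serpine2 in fibroblast-like cells (62.9 and 369 CPM). Plau and Plaur stand highest in macrophage-like cells. Tfpi and Plat are at like levels in endothelial-like and fibroblast-like cells, but Plat is lower in endothelial-like cells of the Lin28+/cKit- library.

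RefSeq promoter windows (GRCm38.p6) were at hand for 5 of the 9 genes: Procr, F3, Tfpi, Plaur and Serpine2. The 250 bases before the start are shown for F3, a gene of fibroblast-like cells, and Plaur, highest among the large classes in macrophage-like cells, both on the plus strand. Capitals mark the letters TGANTCA (a loose form of the AP-1 element) and GGGCGG (the GC box, also searched as CCGCCC). Any base was allowed at N, and as a pattern TGANTCA reads the same on both strands. TATAAA was searched on both strands as well.
F3 chr3:121723287-121723536: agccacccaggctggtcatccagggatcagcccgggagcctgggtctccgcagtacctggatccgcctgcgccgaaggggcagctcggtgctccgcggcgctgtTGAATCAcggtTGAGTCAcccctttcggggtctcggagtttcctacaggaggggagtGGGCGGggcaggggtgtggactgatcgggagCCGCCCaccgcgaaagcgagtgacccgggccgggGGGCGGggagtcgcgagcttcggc
Plaur chr7:24462233-24462482: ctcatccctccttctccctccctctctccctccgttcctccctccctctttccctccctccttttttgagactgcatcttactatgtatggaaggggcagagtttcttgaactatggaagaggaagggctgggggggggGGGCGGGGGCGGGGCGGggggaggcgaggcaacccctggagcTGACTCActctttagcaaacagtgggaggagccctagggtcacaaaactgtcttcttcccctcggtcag
The F3 window held the AP-1 letters at 2 places, as TGAATCA and TGAGTCA, beginning 146 and 135 bases before the start. It held the GC box at 3 places and no TATAAA. Its first 116 bases lie, on the other strand, in an exon of Gm43823, a transcript of unsettled status. The Plaur window held the AP-1 letters once, 69 bases before the start, and the GC box at 3 places, of which 2 share a base. The Procr window held the AP-1 letters once, and those of Serpine2 and Tfpi held them nowhere. Of 32851 mouse windows of the same length, 6.749% held TGANTCA at least once and 0.3379% at 2 or more places, 32.74% held the GC box and 12.37% TATAAA. These are matches of letters, with no measurement of binding.

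Within endothelial-like cells the genes were highest in different clusters. The class had 4 clusters, named here by their leading genes: cluster 0 (Car4, Cldn5, Gpihbp1), with 2 of 6 capillary markers at least 2-fold above the rest of the class, cluster 5 (Stmn2, Hey1, Sema3g), in which 7 of 8 arterial markers were, cluster 10 (Col13a1, Ptprr), in which 3 of 5 markers of the Lrg1 Col13a1 type were, and cluster 11 (Npr3, Cytl1, Tmem108), in which all 4 endocardial markers and also 3 of 5 of the Lrg1 Col13a1 type were. Cluster 11 held 32, 11 and 106 cells of the Lin28+/cKit+, Lin28+/cKit- and Lin28-/cKit- libraries, and cluster 10 held 36, 46 and 131.

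Vwf was a gene of clusters 10 and 11. In cluster 11 it reached 1059.8 CPM (947 to 1182) in the Lin28+/cKit+ library, 1481 CPM (1228 to 1771) in the Lin28+/cKit- library and 1598 CPM (1514.5 to 1685) in the Lin28-/cKit- library, and 96.9%, 90.9% and 91.5% of its cells had a UMI. Over all endothelial-like cells of the Lin28-/cKit- library (median 4066.5 UMIs) the share with a Vwf UMI was 17.7%, against 3.01% of the fibroblast-like cells (median 10302 UMIs), and after thinning to 1000 UMIs per cell it was 11.8% against 0.122%. In cluster 10 the Lin28+/cKit+ library had 319.7 CPM (253 to 398), the Lin28+/cKit- library 492 CPM (429 to 563) and the Lin28-/cKit- library 373 CPM (328 to 422). Clusters 0 and 5, with most of the cells, had 3.98, 3.16 and 4.01 CPM and 9.68, 0 and 6.01 CPM, close to the level in fibroblast-like cells. Cluster 11 held 77.7% of the Vwf UMIs of endothelial-like cells in the Lin28+/cKit+ library, 35.3% in the Lin28+/cKit- library, where cluster 10 held 63.5%, and 84.0% in the Lin28-/cKit- library. Its level was 27.4 (21.7 to 34.9), 12.8 (10.2 to 16.1) and 20.4 (17.8 to 23.3) times that of the rest of the class.

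Procr and Thbd, which act together in protein C activation, were highest in different clusters. Procr was a gene of cluster 11, at 119 CPM (83.2 to 165) in the Lin28+/cKit+ library, 222 CPM (132 to 351) in the Lin28+/cKit- library and 105 CPM (84.3 to 129) in the Lin28-/cKit- library, while cluster 0 had 5.30, 7.90 and 2.00 CPM. A single cell held 13 of the 18 Procr UMIs of this cluster in the Lin28+/cKit- library and another 30 of the 90 in the Lin28-/cKit- library. Thbd was found in all 4 clusters and was highest in cluster 10, with 388 CPM (314 to 473) in the Lin28+/cKit+ library, 344 CPM (291 to 404) in the Lin28+/cKit- library and 398 CPM (352 to 449) in the Lin28-/cKit- library, from 1.63 to 2.24 times the rest of the class. In cluster 0 it stood at 163, 202 and 184 CPM.

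Tfpi was also highest in cluster 11, with 158 CPM (117 to 210.1) in the Lin28+/cKit+ library, 209.8 CPM (122 to 336) in the Lin28+/cKit- library and 118 CPM (95.9 to 143) in the Lin28-/cKit- library, while cluster 0 had 48.4, 44.3 and 54.1 CPM. Plat was highest in cluster 5, with arterial genes, with 152 CPM (123 to 186) in the Lin28+/cKit+ library, 118 CPM (75.8 to 176) in the Lin28+/cKit- library and 118 CPM (98.8 to 139) in the Lin28-/cKit- library. This was 3.91 (2.87 to 5.33), 3.10 (1.86 to 5.01) and 1.90 (1.51 to 2.38) times the rest of the class in the 3 libraries. Against single clusters its interval overlapped that of cluster 11 in the Lin28-/cKit- library, at 92.1 CPM (72.9 to 115). In the Lin28+/cKit- library it overlapped that of cluster 10, at 61.5 CPM (40.6 to 89.5). Plaur had its widest spread between libraries in cluster 5, at 17.7, 29.6 and 6.01 CPM from 11, 6 and 7 UMIs, and lay between 12.3 and 28.1 CPM in the other clusters.

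**Figure D2:**
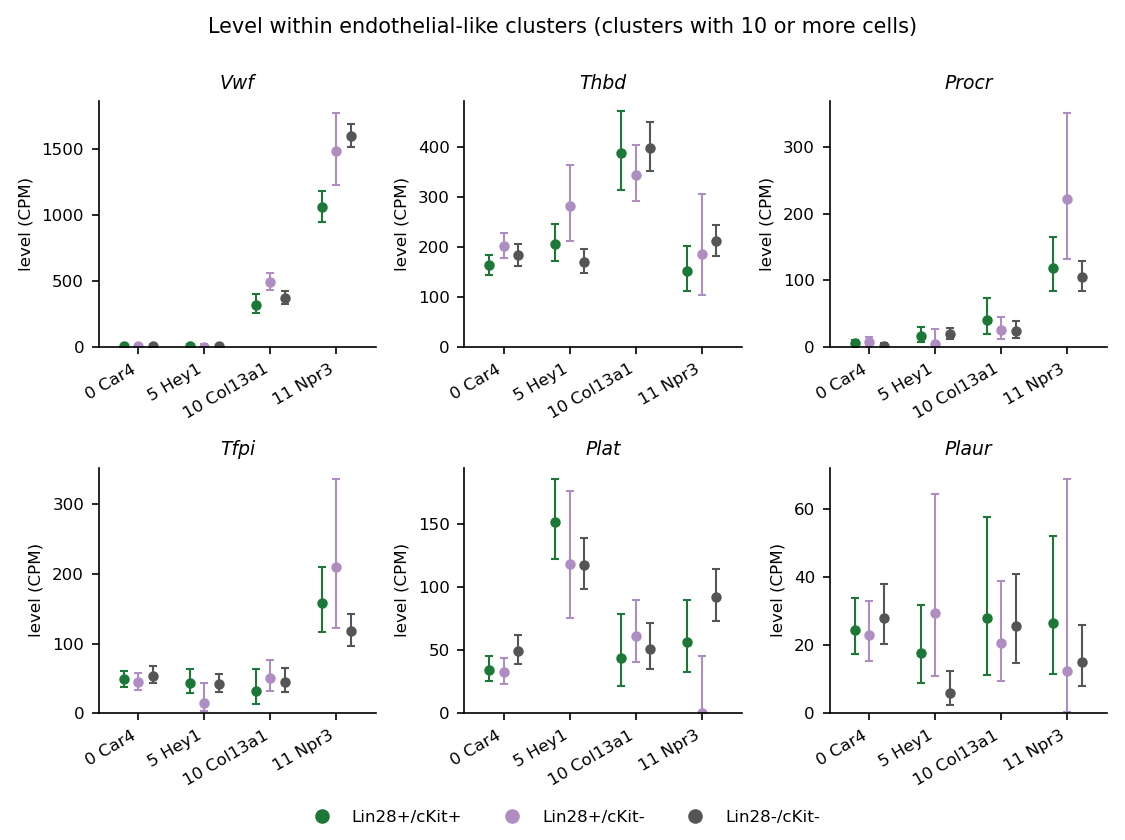
Level of 6 genes (CPM, linear axis from 0) in the 4 endothelial-like clusters, labelled by number and a leading gene; each point is 1 library with at least 10 cells of the cluster and bars are 95% counting intervals. Vwf stands far higher in clusters 10 and 11 than in clusters 0 and 5 (1059.8, 1481 and 1598 CPM in cluster 11), Procr and Tfpi stand highest in cluster 11, Thbd in cluster 10 and Plat in cluster 5.

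Surface Lin28 among cKit-negative cells was addressed in endothelial-like cells by the ratio of the Lin28+/cKit- to the Lin28-/cKit- library, for genes with at least 20 UMIs in the pair. Of the 8 genes measured, 5 were 1.5-fold or more apart, 1 higher and 4 lower in the Lin28+/cKit- library, where 18.3% of the 10292 genes measured were (6.56% higher and 11.8% lower). The median log2 ratio of the 8 was -0.49 and that of the 10292 genes was -0.04. Vwf had a ratio of 0.438 (0.389 to 0.493), Procr 0.643 (0.439 to 0.922), Plat 0.598 (0.469 to 0.756) and Serpine2 0.0931 (0.0297 to 0.224). Plau had a ratio of 2.74 (1.11 to 6.97), from 13 and 10 UMIs. Thbd at 1.10 (0.980 to 1.23), Tfpi at 0.790 (0.620 to 1.00) and Plaur at 1.20 (0.812 to 1.75) stayed within the fold.

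The makeup of the endothelial-like cells also differed between the same libraries. Cluster 0 made up 63.1% of them in the Lin28+/cKit- library and 40.2% in the Lin28-/cKit- library, cluster 5 made up 13.5% and 34.1%, cluster 10 made up 18.9% and 14.2%, and cluster 11 made up 4.51% and 11.5%. When each of the 4 clusters was given the same weight in both libraries, its share of the UMIs of both, a calculation added after the data were seen, Vwf stood at 314.7 CPM in the Lin28+/cKit- library and 312.9 CPM in the Lin28-/cKit- library, a ratio of 1.01. By the same weights the ratio of Procr was 1.69, with 13 of its 40 UMIs in the Lin28+/cKit- library in 1 cell, that of Plat 0.725, that of Serpine2 0.296 and that of Plau 2.29. In cluster 10 alone Vwf stood at 492 CPM in the Lin28+/cKit- library and 373 CPM in the Lin28-/cKit- library. The difference in Vwf over the class was thus not present at the same cluster weights. Cluster 11 had only 11 cells in the Lin28+/cKit- library, and 1 of them held 31 of their 120 Vwf UMIs. The cause of the difference over the class was not tested. The Serpine2 ratio stood beside the fibroblast markers, whose 10 genes summed to 184 CPM in endothelial-like cells of the Lin28+/cKit- library (8 of 10 detected) and to 2422 CPM in those of the Lin28-/cKit- library (10 of 10). How much of these UMIs is free RNA was not tested. Beside Plau, the macrophage markers summed to 435 CPM in endothelial-like cells of the Lin28+/cKit- library and to 14.3 CPM in those of the Lin28-/cKit- library. Free RNA at that share would give 1.36 CPM of Plau in the Lin28+/cKit- library, where 6.54 CPM was measured from 13 UMIs. The cause of the Plau difference was not tested.

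**Figure D3:**
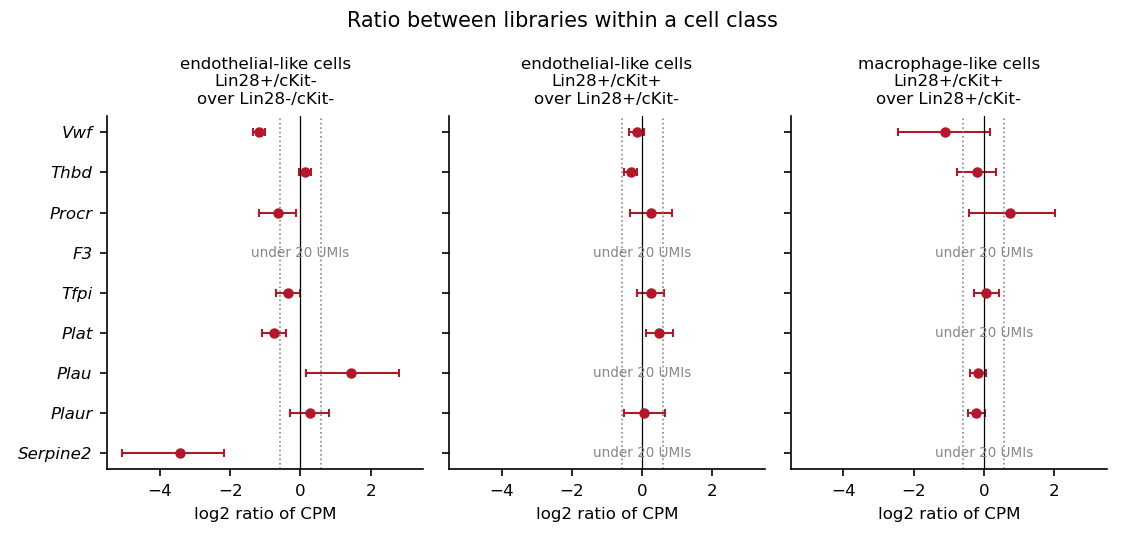
log2 ratio of CPM between 2 libraries for each gene in endothelial-like cells (left and middle) and macrophage-like cells (right), with 95% counting intervals; dotted lines mark 1.5-fold and genes with under 20 UMIs in the pair have no point. Vwf (0.438), Procr, Plat and Serpine2 lie left of the lower line and Plau right of the upper line for Lin28+/cKit- over Lin28-/cKit-, and no gene measured lies past a line for Lin28+/cKit+ over Lin28+/cKit- in endothelial-like cells.

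Surface cKit among Lin28-positive cells was addressed by the ratio of the Lin28+/cKit+ to the Lin28+/cKit- library. In endothelial-like cells 0 of the 6 genes measured were 1.5-fold or more apart, where 14.2% of 9660 genes were (7.09% higher and 7.08% lower). The ratios ran from 0.800 (0.705 to 0.908) for Thbd to 1.40 (1.08 to 1.83) for Plat, with Vwf at 0.901 (0.778 to 1.04) over the class. Of these 6 intervals, those of Thbd and Plat left out 1. In both clusters that carried most of the Vwf it was lower in the Lin28+/cKit+ library. The Vwf ratio in cluster 10 was 0.649 (0.496 to 0.843), past 1.5-fold. Cluster 11 had 1059.8 CPM in the Lin28+/cKit+ library and 1481 CPM in the 11 cells of the Lin28+/cKit- library. Of these 11 cells, 1 held 31 of their 120 Vwf UMIs, and in the Lin28+/cKit+ library 1 cell of this cluster held 24 of 321. With each cluster at the same weight in both libraries the Vwf ratio was 0.705. Cluster 5, where Plat is highest, made up 26.3% of endothelial-like cells in the Lin28+/cKit+ library and 13.5% in the Lin28+/cKit- library, and at the same cluster weights the Plat ratio was 1.19. F3 had 0 UMIs in both libraries, Plau had 4 and 13 and Serpine2 had 11 and 5, too few to be measured.

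In macrophage-like cells 2 of 6 genes were past the fold for the same pair, 1 in each direction, where 11.1% of 10487 genes were (3.77% higher and 7.3% lower). Vwf had a ratio of 0.463 (0.184 to 1.12) from 10 and 14 UMIs and Procr 1.66 (0.739 to 4.07) from 23 and 9 UMIs, so both intervals held 1. Free RNA at the share of the endothelial markers, 7.09% and 5.36% of their level in the Lin28+/cKit+ and Lin28+/cKit- libraries, would give 2.93 and 2.70 CPM of Vwf against the 1.47 and 3.17 CPM measured. The genes that macrophage-like cells carried in quantity were within the fold, with Plau at 0.888 (0.766 to 1.03), Plaur at 0.861 (0.732 to 1.02) and Tfpi at 1.05 (0.816 to 1.35).

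Macrophage-like cells had 2 clusters: cluster 3 (Retnla, Folr2), in which all 6 markers of the Folr2 type stood at least 2-fold above the other cluster, and cluster 7 (Il1b, Mmp13), in which 3 of 5 inflammatory markers did. Cluster 7 made up 43.0% of macrophage-like cells in the Lin28+/cKit+ library and 22.9% in the Lin28+/cKit- library. Plau was higher in cluster 7, at 93.1 CPM (81.2 to 106) in the Lin28+/cKit+ library and 95.0 CPM (74.0 to 120.0) in the Lin28+/cKit- library, against 46.3 CPM (40.2 to 53.1) and 65.4 CPM (57.4 to 74.3) in cluster 3 of the same libraries. Plaur did not follow it in both libraries, with 51.6 CPM (42.9 to 61.6) and 80.0 CPM (60.9 to 103) in cluster 7 and 50.8 CPM (44.4 to 57.9) and 55.1 CPM (47.8 to 63.3) in cluster 3. Thbd went the other way at low levels, with 5.08 CPM (2.62 to 8.87) and 6.78 CPM (2.20 to 15.8) in cluster 7 and 12.6 CPM (9.51 to 16.3) and 12.5 CPM (9.15 to 16.7) in cluster 3. The intervals of Thbd were apart in the Lin28+/cKit+ library and overlapped in the Lin28+/cKit- library.

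**Figure D4:**
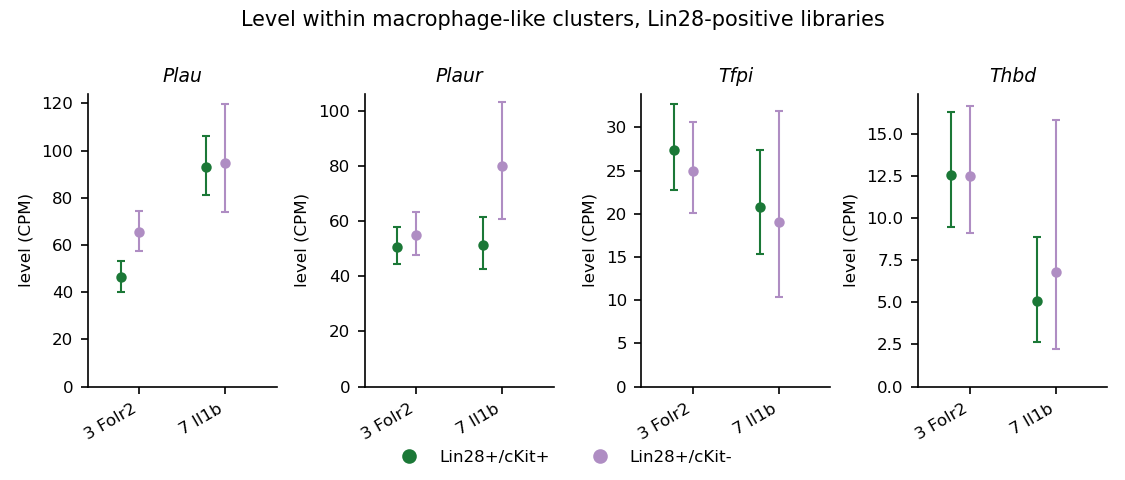
Level of 4 genes (CPM, linear axis from 0) in the 2 macrophage-like clusters of the Lin28+/cKit+ and Lin28+/cKit- libraries, with 95% counting intervals. Plau is higher in cluster 7 than in cluster 3 in both libraries (93.1 against 46.3 CPM and 95.0 against 65.4 CPM), and Tfpi overlaps between the clusters.

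Fibroblast-like cells fell into 6 clusters, nearly all of the Lin28-/cKit- library, so the values that follow are of that library alone. Serpine2 was found at high levels in all 6, from 294 CPM (274 to 315) in cluster 9 (Mfap4, Postn) to 483 CPM (433 to 538) in cluster 15 and 459.6 CPM (442 to 478) in cluster 6. Clusters 6 and 15 each had all 4 markers of the Pi16 Cd248 type at least 2-fold above the rest of the class. F3 ran nearly the other way by level, from 93.4 CPM (82.3 to 106) in cluster 9 to 38.3 CPM (33.3 to 43.8) in cluster 6. Cluster 15 had 42.9 CPM (29.0 to 61.3). In cluster 9, 1 cell held 26 of the 256 F3 UMIs. An F3 UMI was found in 43.3% of the cells of cluster 9 and 33.5% of those of cluster 6. Clusters 1, 2 and 4 had 40.5%, 39.9% and 41.2%, and cluster 15 had 31.25%. By level, the initiator of clotting and the thrombin inhibitor were thus highest in different fibroblast-like clusters.

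Thbd in fibroblast-like cells was highest in cluster 6 at 94.2 CPM (86.2 to 103) and cluster 4 (Inmt, Apod) at 89.3 CPM (81.2 to 98.1), and lowest in cluster 1 (Fap, G0s2) at 32.9 CPM (28.6 to 37.7). Plat ran the other way between clusters 1 and 4, at 83.0 CPM (76.1 to 90.4) and 42.4 CPM (36.8 to 48.5). Plau was low throughout, from 16.4 CPM (13.2 to 20.1) in cluster 2 (Ptn, Thbs1) to 2.86 CPM (0.346 to 10.3) in cluster 15. Its receptor Plaur was highest in the Cd248 clusters, at 47.2 CPM (32.5 to 66.3) in cluster 15 and 27.7 CPM (23.5 to 32.5) in cluster 6, against 11.1 to 14.6 CPM in the other 4. Tfpi differed less, from 45.7 CPM (40.2 to 51.7) in cluster 6 to 73.2 CPM (66.7 to 80.2) in cluster 1.

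**Figure D5:**
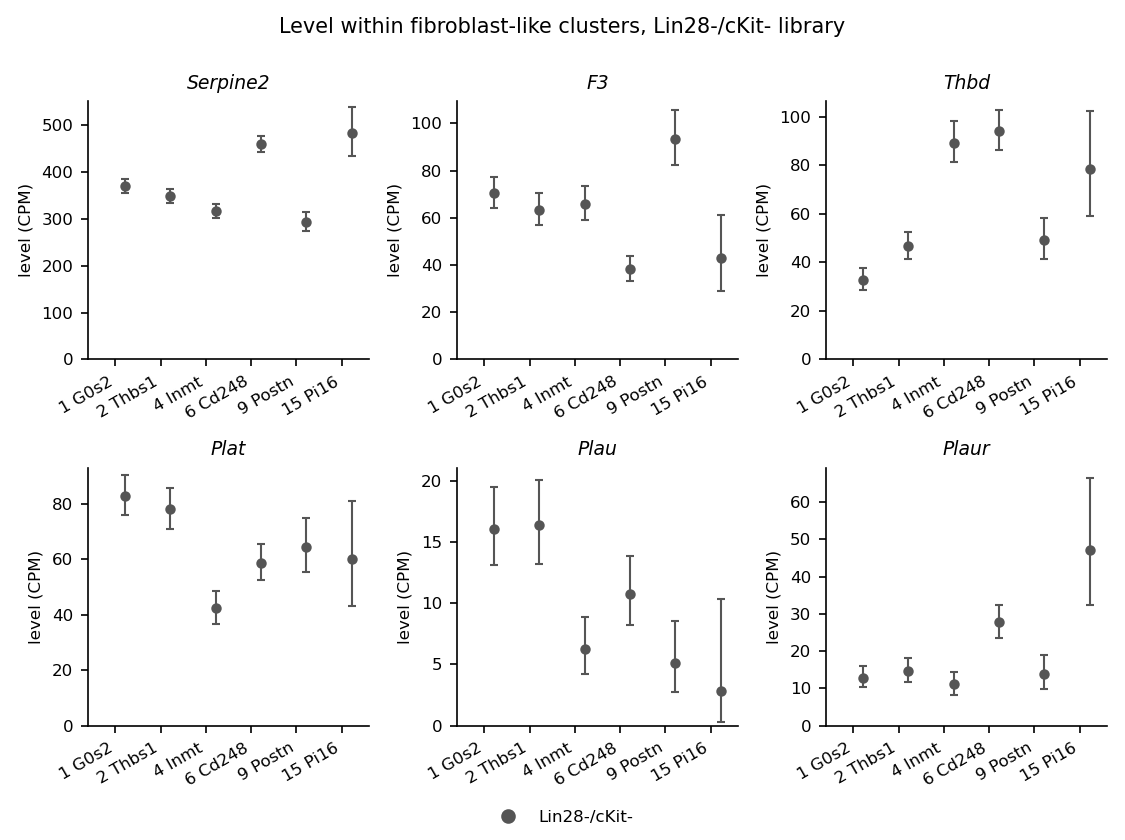
Level of 6 genes (CPM, linear axis from 0) in the 6 fibroblast-like clusters of the Lin28-/cKit- library, labelled by number and a marker or leading gene, with 95% counting intervals. Serpine2 is high in all 6 (294 to 483 CPM), F3 is highest in cluster 9 and lowest in cluster 6, Thbd is highest in clusters 4 and 6, and Plaur is highest in cluster 15.

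Small classes held some of the highest levels, each from few cells, summed over the 3 libraries where none is named. Plaur stood at 280.4 CPM (207 to 371) in 31 B cell-like cells, of which 13 had a UMI, with 11 of the 49 UMIs in 1 cell. The lymphatic endothelial-like cells, 13 in the Lin28+/cKit+, 17 in the Lin28+/cKit- and 19 in the Lin28-/cKit- library, differed between libraries. Thbd stood at 142, 199 and 409.6 CPM in them, Procr at 142, 58.2 and 60.2 CPM, Plaur at 104, 91.4 and 36.1 CPM and Serpine2 at 38.0, 199 and 84.3 CPM, from 3 to 34 UMIs each. Vwf had 3 UMIs in all of them, which gives 9.72 CPM (2.00 to 28.4). Plat reached 311 CPM (181 to 497) in 13 Schwann-like cells from 17 UMIs in 7 cells. F3 stood at 138 CPM (66.4 to 254) in 10 mesothelial-like cells, from 10 UMIs in 3 cells. Pericyte-like cells, which also carry smooth muscle markers, numbered 8, 12 and 44 in the Lin28+/cKit+, Lin28+/cKit- and Lin28-/cKit- libraries. They had 24.8, 77.8 and 92.3 CPM of Tfpi and 149, 19.4 and 86.8 CPM of Plat, from 2 to 17 UMIs each. Of the 48 Vwf UMIs in the unnamed cluster 14, a mixture with neutrophil and T cell genes, 41 were in 1 cell. Plau stood at 111.7 CPM (84.2 to 145) in the 27 cells of the unnamed cluster 20, from 55 UMIs in 16 cells. This cluster had cycling and macrophage markers.

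Over the whole libraries the levels carry the class shares with them, and fewer cells of a class and less RNA per cell cannot be told apart in such sums. For the Lin28+/cKit- over the Lin28-/cKit- library, 6 of 9 genes were 1.5-fold or more apart, where 51.6% of 13765 genes were (23.8% higher and 27.8% lower). Higher in the Lin28+/cKit- library were Plau, at 47.7 CPM (42.8 to 52.9) against 10.96 CPM (9.88 to 12.1), and Plaur, at 48.9 CPM (44.0 to 54.2) against 18.9 CPM (17.4 to 20.4). Lower were F3 with a ratio of 0.195 (0.153 to 0.245), Tfpi with 0.605 (0.529 to 0.689), Plat with 0.298 (0.251 to 0.352) and Serpine2 with 0.0761 (0.0653 to 0.0883). Vwf, at 50.3 CPM and 52.9 CPM, was within the fold. For the Lin28+/cKit+ over the Lin28+/cKit- library, 2 of 9 were past the fold, where 13.8% of 12200 genes were (3.18% higher and 10.6% lower). F3 was lower at 1.06 CPM against 10.3 CPM and Serpine2 at 5.38 CPM against 24.1 CPM. Of the 76 F3 UMIs of the Lin28+/cKit- library, 72 were in its 26 fibroblast-like cells, with 23 in 1 cell, and the Lin28+/cKit+ library had 9 fibroblast-like cells. By TMM scaling this pair shifts by -0.11 on the log2 scale, and neither call was lost.

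The other genes of the 2 systems were taken from 7 lists of 54 genes, of which 41 are in the tables. Of the 7 genes of clotting factors in the tables, 6 stood under 2 CPM in every large class, and F13a1 was the exception. Gas6, a vitamin K-dependent ligand that was only listed together with the clotting inhibitors, was highest in macrophage-like cells. Its level there was 316 CPM in the Lin28+/cKit+ library and 401 CPM in the Lin28+/cKit- library. It stood at 273, 258 and 288 CPM in endothelial-like cells of the Lin28+/cKit+, Lin28+/cKit- and Lin28-/cKit- libraries and at 138 CPM in fibroblast-like cells. The thrombin receptor F2r stood at 88.8, 113 and 80.5 CPM in endothelial-like cells of those libraries, at 111 CPM in fibroblast-like cells and under 2 CPM in macrophage-like cells. Anxa2 and S100a10, the pair that binds plasminogen and its tissue-type activator at the cell surface, were found in all 3 classes, with 344, 349.6 and 414 CPM and 697, 672 and 705 CPM in endothelial-like cells. Nos3, the endothelial nitric oxide synthase, had 109.6, 119 and 141 CPM there, against 1.85 CPM in fibroblast-like cells. The cargo receptor Lman1, of the storage and secretion list, had 119.7, 100.6 and 132 CPM, and Vkorc1, of the vitamin K cycle, 37.7, 45.8 and 52.3 CPM.

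In endothelial-like cells, for the Lin28+/cKit- over the Lin28-/cKit- library, 1 of 25 measured was past 1.5-fold higher and 7 lower, where 18.3% of all genes were past the fold either way, and the median log2 ratio of the 25 was -0.30. The 7 lower were 3 of 6 measured genes of plasminogen activation and its inhibitors, 2 of 7 of von Willebrand factor storage, secretion and clearance and 2 of 4 platelet inhibitors of the endothelium. Among them were Ptgis, which makes prostacyclin, at 9.56 CPM in the Lin28+/cKit- library and 85.6 CPM in the Lin28-/cKit- library, the clearance receptor Lrp1 at 1.51 CPM and 34.2 CPM, and Cd63, Selp, A2m and Nt5e. Ptgis, Lrp1 and Cd63 also stood at 336, 658 and 1107 CPM in the fibroblast-like cells of the Lin28-/cKit- library, and the part of free RNA in their ratios was not tested. Selp, the adhesion receptor stored with von Willebrand factor in the same granules, had 16.1 CPM in the Lin28+/cKit- library and 27.2 CPM in the Lin28-/cKit- library. The 1 higher was F13a1, the A chain of the fibrin-linking factor XIII, with 42 and 0 UMIs, and this gene stood at 1124 CPM in macrophage-like cells of the Lin28+/cKit- library.

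In endothelial-like cells 2 of 22 list genes were higher and 3 lower in the Lin28+/cKit+ than in the Lin28+/cKit- library, where 14.2% of all genes were past the fold. Ptgis was among the higher, at 37.7 CPM in the Lin28+/cKit+ library and 9.56 CPM in the Lin28+/cKit- library, and Selp, Rab27a and Tfpi2 were the lower. In macrophage-like cells 1 of 19 was higher (Serpinf2) and 3 were lower in the Lin28+/cKit+ library, where 11.1% of all genes were past the fold. The lower were F13a1 at 724 CPM and 1124 CPM, the protein C cofactor Pros1 at 30.4 CPM and 49.1 CPM, and Ggcx, the vitamin K-dependent carboxylase, at 2.49 CPM and 5.20 CPM. F13a1 is among the leading genes of cluster 3, which made up 57.0% of macrophage-like cells in the Lin28+/cKit+ library and 77.1% in the Lin28+/cKit- library. Over the whole libraries 6 of 33 list genes were higher and 19 lower in the Lin28+/cKit- than in the Lin28-/cKit- library, where 51.6% of all genes were past the fold. In the Lin28+/cKit+ over the Lin28+/cKit- library 1 of 28 was higher and 7 lower, where 13.8% of all genes were past it.

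The genes whose pattern lay nearest to each of the 9 were found by the Pearson correlation of log2(CPM + 1) over the 17 clusters with at least 50 cells, among 10584 genes. The points are clusters that share libraries and differ in depth, and no test was made. Serpine2 lay nearest to Col5a1, Col6a2 and Ddr2 (r = 0.995, 0.995 and 0.993), F3 to Twist2, Tenm3 and Svep1 (0.986, 0.985 and 0.980) and Plat to Ebf1 (0.982). Thbd lay nearest to Agrn (0.959), Tfpi to Zbtb4 (0.948), Procr to Cgnl1 (0.885), Plau to Blnk (0.905) and Plaur to Ube2a (0.901). Vwf had the weakest nearest match, Pfdn5 at 0.868, followed by Pkhd1l1 and Spint2 at 0.864 each.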

How the data were processed

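Single-cell 3' libraries of 3 sorted groups were analysed, with groups taken from the labelled surface phenotype. Per the submitters' processing notes the authors used Cell Ranger (no version given), the mouse build mm10 and Seurat 4.0.2. The deposited values are natural log (ln) values, ln(1 + 10000 × UMIs of a gene / UMIs of the cell). Undoing the log gave cell sums of 10000, from which 100% of the values came out as whole UMIs within 0.01. Raw tables had been planned for, and the planned methods were applied to the UMIs recovered. In the files every cell had at least 500 UMIs and at most 9.99% mitochondrial UMIs, so the limits used here (200 genes, 20% mitochondrial UMIs) removed no cell.

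Cells were clustered together with scanpy 1.11.5 and leidenalg 0.10.2 (2000 variable genes without the 9 members, the 7 pathway lists and Kit, 30 principal components, 15 neighbours, resolution 1) into 23 clusters, named from 19 marker lists. No doublet caller was run. An alternative removed the 5% of cells with the most UMIs. UMIs were summed per class and library. With scipy 1.17.1, intervals of levels were exact Poisson, those of cell shares Clopper-Pearson and those of ratios binomial, conditional on the UMIs of the pair. Those of ratios were tested on simulated Poisson counts, the form that they assume. The simulation did not include the clumping of UMIs in single cells. All these intervals cover counting error only. A gene was called higher or lower at 1.5-fold with at least 20 UMIs in the pair, and 0 UMIs were taken as 3. Shares were also given after thinning to 1000 UMIs, which left out 61, 68 and 107 shallower cells of the Lin28+/cKit+, Lin28+/cKit- and Lin28-/cKit- libraries. Free RNA was estimated from the markers of an absent class as a percent of their library level. All 9 members are named, with up to 4 genes of each list by level, the 3 genes of nearest pattern, and list genes past the fold within a class, which were singled out after their values were seen. The closing section gives the effect of 15 planned and 5 added alternatives. The members and lists were chosen with earlier results of these data known. Positions follow GENCODE vM21 (mm10). The transcripts of Lin28a and Lin28b are not analysed here. The values of 1 list gene are not reported here.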

Additional observations from a re-analysis of the deposited data

How the results depend on the processing

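Each count was recomputed under 15 alternatives listed beforehand and 5 added after the data were seen, where they applied. The count of genes past 1.5-fold in endothelial-like cells for Lin28+/cKit- over Lin28-/cKit-, 5, was 3 with means over cells, 3 at a fold of 2, 2 in cluster 0 alone and 3 with each cluster at the same weight in both libraries. In that comparison 2 ratios turned round: on the log2 scale Procr was at 0.12 with the class of each cell taken from its own markers and at 0.76 at the same cluster weights, and Vwf was at 0.0085 at the same cluster weights. The endothelial-like count for Lin28+/cKit+ over Lin28+/cKit-, 0, was 2 with no minimum of UMIs, 1 without the cell with the most UMIs of the gene in each library and 1 with classes from each cell's own markers. The macrophage-like count, 2, was 0 when 50 UMIs were required, 4 with no minimum, and 1 with a pseudocount of 1 CPM, without the 5% of cells with the most UMIs, with free RNA subtracted, at a fold of 2, at resolution 0.5 and with classes from each cell's own markers. The count of genes highest in endothelial-like cells, 3, was 5 with UMIs summed over libraries, at resolution 0.5, at resolution 2 and with the clotting genes kept in the clustering. The cause was not tested, except where fewer UMIs or clusters enter by construction. In 60 other recomputed counts, the whole-library ones included, the value stayed within 1.5 times, and of the ratios of single genes 503 recomputed values stayed within their interval and 18 moved beyond it without turning round. No paired analysis was possible because the labels give no replicate numbers and each group has 1 library. With 1 library per group, differences between hearts, sorts or library preparations and between the groups cannot be told apart, and the lowest levels rest on few UMIs and stand near the free-RNA estimates.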
